A study of Mus musculus with 19 samples.

Results

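The genes described here were Hmgcs1, Idi1, Fdft1, Sqle, Cyp51, Insig1 and Srebf2, a set of 7 cholesterol synthesis and uptake genes among the 27179 genes listed in a table of RNA levels in mouse splenocytes. They were chosen by name, and each name was matched to its line of the table through its Entrez identifier. By what they encode, 5 of the 7 are synthesis enzymes (Hmgcs1, Idi1, Fdft1, Sqle and Cyp51) and the other 2 are regulators (Insig1 and Srebf2). None of the 7 is itself a receptor for uptake.

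The study set sex chromosomes apart from gonads in mice of the 4 core genotypes model (FCG) and asked how each bears on the response to heat-killed Streptococcus pneumoniae (HKSP). All 19 mice were immunized with HKSP and their spleens were taken 7 days later, red blood cells were lysed with ammonium chloride, and mRNA of the remaining splenocytes was sequenced with 1 library per mouse. The 5 XXF mice had XX chromosomes and ovaries, the 4 XYF mice had an X chromosome, a Y chromosome without Sry, and ovaries, the 5 XXM mice had XX chromosomes, an Sry transgene and testes, and the 5 XYM mice had an X chromosome, a Y chromosome without Sry, the Sry transgene and testes. All came from males written XY- Sry, bred with C57BL/6J females, and the transgene sits on autosome 3. Males therefore differed from females in the transgene as well as in gonads. No group went without HKSP, so no level before immunization was measured, and ages were not given for these mice in the sources used here.

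Libraries held 11263753 to 19962022 reads. A level is given as log2(RPKM + 1), where RPKM is the reads of a gene scaled by its length and by the total reads of the library, and a difference is the difference between group means on that log2 scale. All 7 genes had reads in every mouse and passed the filter on low values, as did 14186 genes in all. A gene was called where limma, fitted over those 14186 genes, gave an adjusted p under 0.1 and a difference over 1.5-fold in RPKM + 1, which for a gene of few RPKM is a larger fold in RPKM itself. Values by mouse follow the order F1 to F5 for XXF, F6 to F9 for XYF, 2, 5, 6, 7 and 8 for XXM, and 12, 13, 15, 16 and 9 for XYM.

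Markers of splenic cell types were present in every mouse: none of the genes in the 7 marker lists was at 0 in any mouse, the most abundant B cell marker, Cd79b, had a median of 806 RPKM, and the T cell marker Trac had a median of 183 RPKM. A few libraries stood apart. XYF F9 and XYM 9 had summed myeloid markers of 46025 and 46704 RPKM, against 3268 to 16338 in the other mice. XYF F6 had the smallest library, 11263753 reads, and the highest summed erythroid markers, 43632 RPKM. The groups also stood together in the running numbers of the library titles and the XXM titles carried an extra tag, so any effect of processing order and the effect of group cannot be told apart.

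Cells build cholesterol from acetyl-CoA through mevalonate and squalene, and they take up more of it in lipoproteins. When sterol in the membrane of the endoplasmic reticulum is low, the transcription factor SREBP-2, the product of Srebf2, is carried by Scap to the Golgi, cut by proteases and turns on the genes of synthesis and uptake. When sterol is plentiful, Insig proteins hold Scap back. Lymphocytes that divide need new membrane, and B cells and macrophages also make and sense oxysterols, which steer the position of B cells in the spleen through the receptor Gpr183.

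Across genes, RPKM levels ran from the regulator Srebf2 at the top to the enzyme Idi1 at the bottom. The median over 19 mice was 57.9 RPKM for Srebf2, 27.0 for Hmgcs1, 17.3 for Insig1, 14 for Cyp51, 9.22 for Sqle, 6.71 for Fdft1 and 2.53 for Idi1. This order held within nearly all mice: Cyp51 was above Insig1 in 1 mouse and Fdft1 was above Sqle in 2 mice, and the other neighbours in the order did not cross in any mouse. Srebf2 stood at percentile 89.2 of the genes tested and Idi1 at percentile 24.8. The range over mice was narrow for each gene. Hmgcs1 had the smallest ratio of the highest mouse to the lowest, 1.51, and Idi1 the largest, 2.38, with 68 to 194 reads per library behind Idi1 and 1077 to 1998 behind Hmgcs1.

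**Figure D1:**
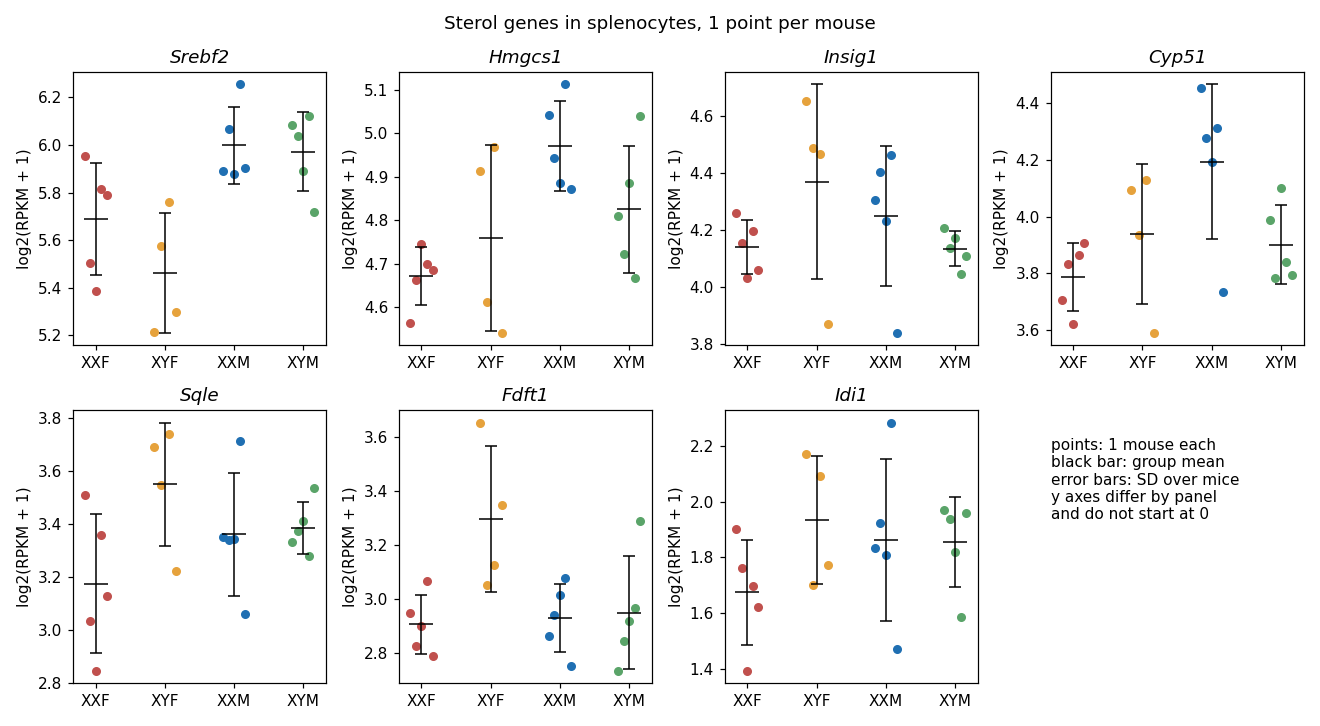
Level of each of the 7 genes as log2(RPKM + 1) on the y axis, with 1 point per mouse, the group mean as a black bar and the SD over mice as error bars, and with y axes that differ by panel and do not start at 0. Hmgcs1 in the 5 XXM mice lay between 4.87 and 5.11, above all 5 XXF mice at 4.56 to 4.74, and the Srebf2 mean of XYM mice, 5.97, stood above those of XXF and XYF mice, 5.69 and 5.46.

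Testes against ovaries was compared within XX mice, within XY mice and over both. In XX mice all 7 genes had a higher mean with testes, as had 6913 of 14186 genes tested (Fdft1 at 0.02 turned to −0.01 without XXM 7). Most of the 7 genes varied together over mice, so their signs are not separate observations. The enzymes Hmgcs1 and Cyp51 passed the adjusted p, by 0.30 and 0.41 on the log2 scale. In XY mice the genes moved in different directions: the regulator Srebf2 was higher in XYM than in XYF mice by 0.51, and the enzyme Fdft1 had a difference of −0.34. Averaged over XX and XY, Srebf2 was higher in males by 0.41 and Hmgcs1 by 0.18. None of these differences reached the fold threshold.

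In XXM against XXF mice limma called 0 of the 7 genes, where 4.22% of all genes tested were called, and limma-voom on recovered reads also called 0. By the adjusted p alone 2 of the 7 passed, against 9.50% of all genes tested, and 3 of the 7 had an unadjusted p under 0.05, against 19.8%. The groups did not overlap for 1 of the 7, Hmgcs1, against 9.71% of all genes tested. The median difference was 0.19 over the 7 genes and −0.01 over all genes tested. In XYM against XYF mice limma called 0 of 7, against 15.8% of all genes, and limma-voom called 0. By the adjusted p alone 2 of 7 passed, a smaller share than the 39.9% of all genes, and 2 of 7 had an unadjusted p under 0.05, against 42.4%. The groups overlapped for all 7 genes, against 13.8% of genes without overlap. The median difference was −0.08 over the 7 genes, 2 of them higher and 5 lower, and 0.02 over all genes, with 7319 of 14186 higher. Over males against females limma called 0 of 7, against 7.32% of all genes, and limma-voom called 0. By the adjusted p alone 2 of 7 passed, against 38.5%, and 2 of 7 had an unadjusted p under 0.05, against 41.7%. The 2 genes past the adjusted p were Hmgcs1 and Cyp51 in XX mice, Srebf2 and Fdft1 in XY mice, and Srebf2 and Hmgcs1 over both.

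XX against XY chromosomes was compared within females, within males and over both. In females, 6 of the 7 genes had a lower mean in XXF than in XYF mice, as had 5630 of 14186 genes tested, with Fdft1 at −0.39 and Sqle at −0.38. Srebf2 alone of the 7 had a higher mean, at 0.23 (0.14 without XYF F6, and 0.022 without XYF F6 and XYF F9 together). In males the differences ran from −0.03 for Sqle to 0.29 for Cyp51, and the signs of Sqle, Fdft1 and Srebf2 turned under quantile normalization. None of the 7 genes passed the adjusted p in either sex.

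In XXF against XYF mice limma called 0 of 7, against 1.38% of all genes tested, and limma-voom called 0. By the adjusted p alone 0 of 7 passed, against 2.43%, with both limma and limma-voom, and 2 of 7 had an unadjusted p under 0.05 in limma, against 18.7%. The groups overlapped for all 7, against 5.65% of genes without overlap, and the median difference was −0.23, with 0.06 over all genes. In XXM against XYM mice limma and limma-voom each called 0 of 7, against 2.96% of all genes, and 0 of 7 passed the adjusted p in either, against 7.86%. The limma unadjusted p was under 0.05 for 1 of 7, against 27.1%, the groups overlapped for all 7, against 4.07% of genes without overlap, and the median was 0.03. Averaged over both gonadal sexes limma and limma-voom each called 0 of 7, against 1.72%, and put 0 under the adjusted threshold, against 6.93%, with 1 of 7 at a limma unadjusted p under 0.05, against 22.8%. The difference between the XX against XY effects in females and in males was tested directly. There limma and limma-voom each called 0 of 7, against 0.0846% of all genes with the fold threshold and 0.0846% without it, and 1 of 7, Cyp51, had a limma unadjusted p under 0.05, against 21.0%.

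**Figure D2:**
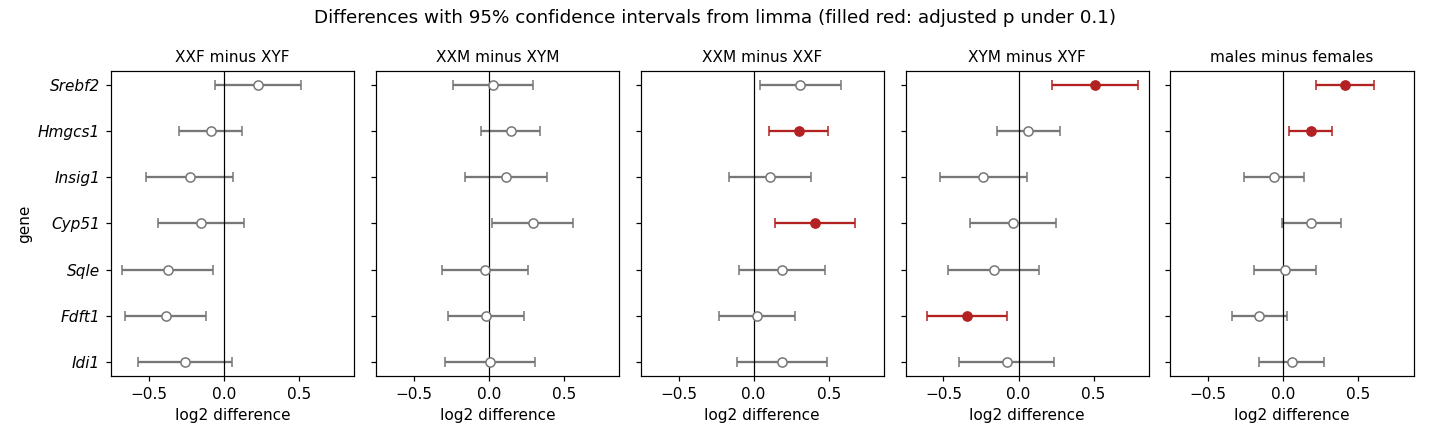
Difference in log2(RPKM + 1) on the x axis for the 7 genes on the y axis in 5 comparisons, with 95% confidence intervals from limma and filled red points for an adjusted p under 0.1. In XXM minus XXF all 7 points lie above 0 and Hmgcs1 (0.30) and Cyp51 (0.41) are filled, while in XYM minus XYF Srebf2 (0.51) and Fdft1 (−0.34) are filled on opposite sides of 0, and no point is filled in XXF minus XYF or XXM minus XYM.

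Hmgcs1 (Entrez 208715, chromosome 13, 119690351 to 119708260 in GRCm38.p6) encodes the cytosolic HMG-CoA synthase, an early enzyme of the mevalonate pathway. Its log2 level was 4.56, 4.66, 4.74, 4.70 and 4.68 in XXF mice, 4.91, 4.61, 4.97 and 4.54 in XYF mice, 5.04, 4.94, 4.88, 5.11 and 4.87 in XXM mice, and 4.81, 4.72, 4.88, 4.67 and 5.04 in XYM mice. Every XXM mouse stood above every XXF mouse, while XYF and XYM mice spread over both ranges. The XXM minus XXF difference was 0.30 (SE 0.09, 95% interval 0.10 to 0.50, limma adjusted p = 0.0661). An exact two-sided permutation test of this gene alone over 5 and 5 mice gave p = 0.00794, the smallest it can give. Any gene whose groups do not overlap gives that p, as held for 9.71% of all genes tested, so it adds nothing to the lack of overlap. The adjusted p rose above 0.1 without XXF F1 (0.149), XXF F2 (0.118), XXF F4 (0.109), XXF F5 (0.109), XXM 2 (0.112), XXM 5 (0.108) or XXM 7 (0.145), with the difference between 0.26 and 0.33 over all alternatives and the adjusted p between 0.00899 and 0.149. In XYM against XYF mice the difference was 0.07. It turned to −0.0069 without XYF F9, −0.0607 with array weights and −0.0611 without XYF F9 and XYM 9 together. The direct test of whether the chromosome effects differed between the sexes gave −0.23 (limma adjusted p = 0.315).

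The promoter of Hmgcs1 is shown because it alone among the promoters at hand matched the sterol element pattern searched for. Only exact matches were counted, so a promoter without one may hold a sterol element of another form. RefSeq promoter sequences, 250 bases before to 50 after the start in GRCm38.p6, were at hand for 5 of the 7 genes, with Sqle and Fdft1 missing from the table. Both strands were searched for TCACNCCAC, a sterol regulatory element type held by 408 of 32851 promoters (1.24%), for the E box CACGTG (7.15% of promoters), for CCAAT, the NF-Y box (37.4%), and for GGGCGG, the GC box (35.7%). Hmgcs1 held 1 sterol element on the plus strand, from base −137 relative to the start (capitals), with 4 NF-Y boxes and 3 GC boxes, none of them overlapping it. The window is chr13:119690101-119690400, plus strand, from RefSeq.
Hmgcs1: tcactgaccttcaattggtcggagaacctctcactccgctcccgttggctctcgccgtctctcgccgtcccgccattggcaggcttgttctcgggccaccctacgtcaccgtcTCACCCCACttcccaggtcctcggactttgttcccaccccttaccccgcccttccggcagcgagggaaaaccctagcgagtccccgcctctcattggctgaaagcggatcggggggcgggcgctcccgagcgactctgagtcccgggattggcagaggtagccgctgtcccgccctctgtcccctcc

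Idi1 (Entrez 319554, chromosome 13) encodes the isomerase that turns isopentenyl diphosphate into its allylic isomer. Its log2 levels overlapped in all groups: 1.39 to 1.90 in XXF, 1.70 to 2.17 in XYF, 1.47 to 2.28 in XXM and 1.59 to 1.97 in XYM mice. The highest mouse was XXM 7 and the lowest XXF F3. No comparison put Idi1 past the adjusted p, and its largest limma difference between 2 groups was −0.26 in XXF against XYF mice (SE 0.15, 5 of 5 XXF mice below the XYF mean, adjusted p = 0.354). Its promoter held 2 NF-Y boxes and 1 GC box.

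Fdft1 (Entrez 14137, chromosome 14, 63145150 to 63181687) encodes squalene synthase, the first enzyme of the branch that leads to sterols alone. Its log2 level was 2.95, 2.82, 2.90, 3.07 and 2.79 in XXF mice, 3.65, 3.05, 3.12 and 3.35 in XYF mice, 2.86, 2.94, 3.01, 3.08 and 2.75 in XXM mice, and 2.73, 2.84, 2.92, 2.96 and 3.29 in XYM mice. XYF F6 was the highest mouse, XYF F9 and XYM 9 came next, and the other mice lay close together. The XYM minus XYF difference was −0.34 (SE 0.13, 95% interval −0.61 to −0.08, limma adjusted p = 0.0502), with 4 of 5 XYM mice below every XYF mouse and an exact two-sided permutation p of 0.0714. This rested on a few mice. Without XYF F6 the difference was −0.22 (adjusted p = 0.21), without XYM 12 it was −0.29 (0.125), without XYM 13 it was −0.32 (0.102), and without XYF F6 and XYF F9 together it was −0.14 (0.502), with adjusted p from 0.0129 to 0.502 over the alternatives. The XXF minus XYF difference was −0.39 (SE 0.13, 95% interval −0.66 to −0.12, limma adjusted p = 0.144), with 4 of 5 XXF mice below every XYF mouse. An exact two-sided permutation test of this gene alone gave p = 0.0159. That adjusted p came under 0.1 without XYF F7 (0.0542), XYF F8 (0.0946) or XYM 9 (0.0802), and over the alternatives it ranged from 0.0542 to 1.0. Without XYF F6 and XYF F9 together the difference was −0.18. In XXM against XYM mice Fdft1 had −0.02, and the direct test of the difference between the chromosome effects gave −0.37 (SE 0.18, adjusted p = 0.238).

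Sqle (Entrez 20775, chromosome 15) encodes squalene epoxidase, a rate-controlling step. Its log2 level was 3.51, 3.03, 2.84, 3.36 and 3.13 in XXF mice, 3.69, 3.55, 3.74 and 3.22 in XYF mice, 3.35, 3.34, 3.34, 3.71 and 3.06 in XXM mice, and 3.33, 3.37, 3.41, 3.28 and 3.54 in XYM mice. XXF mice tended to the low end and 3 of the 4 XYF mice to the high end, and the ranges overlapped. The XXF minus XYF difference was −0.38 (SE 0.14, 95% interval −0.68 to −0.07, limma adjusted p = 0.191), with 5 of 5 XXF mice below the XYF mean and an exact two-sided permutation p of 0.0635.

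Cyp51 (Entrez 13121, chromosome 5) encodes lanosterol demethylase, the enzyme that removes a methyl group from the first sterol of the pathway. Its log2 level was 3.70, 3.83, 3.62, 3.87 and 3.91 in XXF mice, 4.09, 3.94, 4.13 and 3.59 in XYF mice, 4.45, 4.28, 4.19, 4.31 and 3.73 in XXM mice, and 3.99, 3.78, 4.10, 3.84 and 3.79 in XYM mice. The XXM mice other than XXM 8 were the 4 highest of all 19, and XXM 8 lay among the XXF mice. The XXM minus XXF difference was 0.41 (SE 0.13, 95% interval 0.14 to 0.68, limma adjusted p = 0.0675), with an exact two-sided permutation p of 0.0317. The adjusted p rose above 0.1 without XXF F1 (0.137), XXF F2 (0.104), XXF F3 (0.138), XXM 2 (0.138), XXM 5 (0.14), XXM 6 (0.128) or XXM 7 (0.134), and ranged from 0.0109 to 0.14 over the alternatives. Against XYM mice, XXM mice differed by 0.29 (SE 0.13, limma adjusted p = 0.156), which came under 0.1 without XXM 8 (0.0753) or XYM 15 (0.0883) and ranged from 0.0402 to 0.365. The difference between the chromosome effects in females and males was −0.44 for Cyp51 (SE 0.19, 95% interval −0.84 to −0.05, limma adjusted p = 0.19). Its promoter held 1 NF-Y box and 1 GC box.

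Insig1 (Entrez 231070, chromosome 5) encodes an anchor of the endoplasmic reticulum that holds back Scap and is itself a target of SREBP-2. Its log2 level was 4.26, 4.16, 4.03, 4.20 and 4.06 in XXF mice, 4.65, 4.49, 4.47 and 3.87 in XYF mice, 4.30, 4.40, 4.23, 4.46 and 3.84 in XXM mice, and 4.21, 4.14, 4.17, 4.05 and 4.11 in XYM mice. In 2 of the groups 1 mouse lay far below the rest, XYF F9 and XXM 8, and XYM mice were close together with an SD of 0.06 against 0.34 in XYF mice. Insig1 did not pass the adjusted p in any of the 7 comparisons. The XYM minus XYF difference was −0.23 (SE 0.14, adjusted p = 0.199 in limma), and without XYF F9 it was −0.40 (0.0211) and without XYF F6 −0.14 (0.507), with adjusted p from 0.0211 to 0.507 over the alternatives. The promoter of Insig1 is shown because it alone of the 5 held the E box, and it was chosen after its values were seen. The E box (capitals) starts at base −101 on the plus strand, overlaps none of the 1 NF-Y box and 3 GC boxes found there, and the window is chr5:28071162-28071461, plus strand, from RefSeq. A match is a description of letters and does not show binding.
Insig1: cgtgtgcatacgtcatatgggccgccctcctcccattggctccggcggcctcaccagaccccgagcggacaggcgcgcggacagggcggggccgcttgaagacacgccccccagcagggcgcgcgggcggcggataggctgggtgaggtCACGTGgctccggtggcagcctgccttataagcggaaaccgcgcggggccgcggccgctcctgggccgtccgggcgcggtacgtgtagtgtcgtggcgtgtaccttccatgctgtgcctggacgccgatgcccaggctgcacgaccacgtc

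Srebf2 (Entrez 20788, chromosome 15, 82147269 to 82205379) encodes SREBP-2, the transcription factor of the pathway. Its log2 level was 5.96, 5.50, 5.39, 5.81 and 5.79 in XXF mice, 5.21, 5.58, 5.76 and 5.30 in XYF mice, 5.89, 6.07, 5.88, 6.26 and 5.91 in XXM mice, and 6.08, 6.04, 5.89, 6.12 and 5.72 in XYM mice. Males stood at the high end with XXM 7 on top, XYF F6 and XYF F9 were lowest, and the ranges of males and females overlapped. The XYM minus XYF difference was 0.51 (SE 0.14, 95% interval 0.22 to 0.79, limma adjusted p = 0.0129), with 4 of 5 XYM mice above every XYF mouse and an exact two-sided permutation p of 0.0238. Without XYF F8 it was 0.61 (adjusted p = 0.00572) and Srebf2 was called. Without XYF F6 and XYF F9 together, an exclusion chosen after seeing the data, it was 0.30 (adjusted p = 0.2, with 0.0054 to 0.2 over the alternatives). In XXM against XXF mice the difference was 0.31 (SE 0.13, 95% interval 0.04 to 0.58, limma adjusted p = 0.175), with 5 of 5 XXM mice above the XXF mean. That adjusted p came under 0.1 with median ratio rescaling (0.0932) and array weights (0.067), and ranged from 0.067 to 0.345 over the alternatives. Over males against females it was 0.41 (SE 0.09, 95% interval 0.21 to 0.61, limma adjusted p = 0.00436), and it stayed under 0.1 in all alternatives, with 0.00197 to 0.0391. Whether the gonad effect on Srebf2 differed between XX and XY mice was tested by the same contrast as the difference between the chromosome effects, which gave 0.20 (limma adjusted p = 0.536). Its promoter held 1 NF-Y box and 5 GC boxes.

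Hmgcs1 was the other of the 7 genes to pass over males against females, by 0.18 (SE 0.07, 95% interval 0.04 to 0.33, limma adjusted p = 0.0519). It no longer passed without XYF F7 (0.103) or XYF F9 (0.102), and ranged from 0.0242 to 0.145 over the alternatives. Cyp51 had a difference of 0.19 (adjusted p = 0.138), which came under 0.1 without XXM 8 (0.0351) or XYF F8 (0.0961), and ranged from 0.0351 to 0.443. Fdft1 had −0.16 (adjusted p = 0.173), which came under 0.1 without XYM 9 (0.0636), was −0.10 (0.385) without XYF F6, and ranged from 0.0636 to 0.657 in adjusted p. Insig1, Idi1 and Sqle lay between −0.06 and 0.05.

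Most of the 7 genes varied in the same direction from mouse to mouse, with exceptions that involve Fdft1 and Srebf2. Over the 19 mice, 20 of the 21 pairs among the 7 genes had a Pearson r above 0, with a median of 0.42, beside a median of 0.01 and a range of −0.65 to 0.71 from the 5th to the 95th percentile over all 100614205 pairs of tested genes. Without Srebf2 the median was 0.52, and all 15 pairs were above 0. The 6 pairs with Srebf2 had a median of 0.19. Without XXM 7 and XXF F3, the 2 mice whose mean over the 7 genes lay farthest from the median, 16 of the 21 pairs were above 0, the median without Srebf2 was 0.41, and the median of the pairs with Srebf2 turned to −0.18. These values are descriptions over mice that share libraries, depth and group, with no p.

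Sqle and Idi1 were the closest pair, with r = 0.84 (rho 0.73, n = 19), 0.81 on deviations from the group means and 0.74 without those 2 mice. Sqle and Insig1 had r = 0.76 (rho 0.75), and 0.76 on deviations from the group means. Hmgcs1 and Cyp51 had r = 0.72 (rho 0.69), and 0.55 on deviations from the group means. Srebf2 and Fdft1 had the lowest r of the 21 pairs, with r = −0.56 (rho −0.37), −0.35 on deviations from the group means and −0.73 without the 2 mice. Among the enzymes Fdft1 had r = 0.02 with Cyp51 (−0.0474 without the 2 mice) and 0.14 with Hmgcs1.

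**Figure D3:**
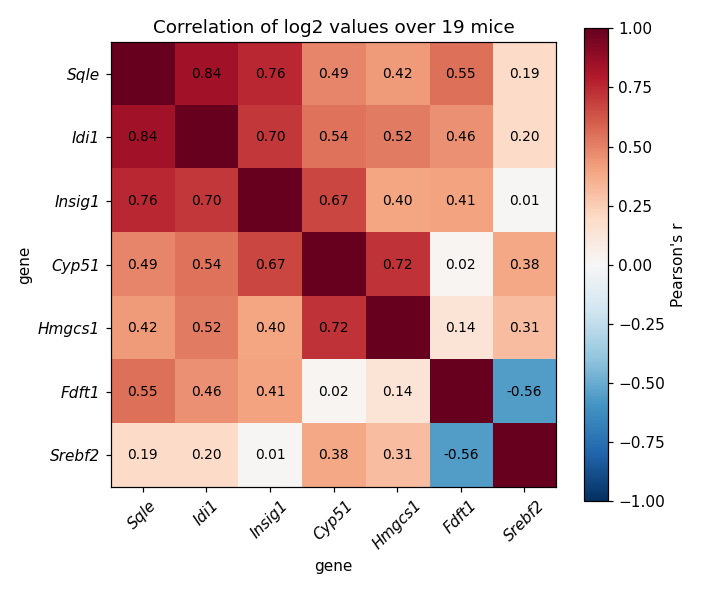
Pearson's r over 19 mice between the log2(RPKM + 1) values of each pair of the 7 genes, with the same genes on both axes and colours from −1 to 1. Sqle, Idi1 and Insig1 form a block of r from 0.70 to 0.84, and the Srebf2 row holds values from −0.56 to 0.38.

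Each mouse was given the mean of the 7 genes, each centred on its mean over all mice. This member mean was highest in XXM 7 (0.32), XYF F6 (0.20) and XYF F8 (0.19), and lowest in XXF F3 (−0.29), XXM 8 (−0.19) and XYF F9 (−0.19). XYF and XXM each held high and low mice, all 5 XXF mice were below 0, and the group means with SD over mice were XXF −0.13 ± 0.11 (n = 5), XYF 0.05 ± 0.19 (n = 4), XXM 0.09 ± 0.18 (n = 5) and XYM 0.01 ± 0.05 (n = 5). The r of the member mean with log2 library size was −0.21, and −0.46 without XXM 7 and XXF F3.

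Among 14179 tested genes outside the 7, the r with the member mean had a median of 0.02, with −0.30 and 0.31 at the 5th and 95th percentiles, and 69 genes were above 0.5. Among the 10 highest were Rbm3-ps (0.78), D6Wsu163e (0.77), Msmo1 (0.68), Acsl3 (0.68), Ippk (0.66), 4833419F23Rik (0.65), Fam83g (0.63), Btf3l4 (0.63) and a gene without a symbol, Entrez 100503054 (0.62). Msmo1 is a sterol enzyme that acts in the same stretch of the pathway as Cyp51, Rbm3-ps is a pseudogene copy of Rbm3 whose reads may come from the parent gene, and Entrez 100503054 had only 9 to 61 reads per library. Without XXM 7 and XXF F3 the r was 0.79 for Rbm3-ps, 0.56 for D6Wsu163e, 0.67 for Msmo1 and 0.43 for Acsl3. The 3 lowest were Fgfbp3 (−0.67), Il6ra (−0.66) and Marveld1 (−0.64).

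Other enzymes of sterol synthesis followed the same mice. Of 15 such enzymes, 14 had r above 0 with the member mean, as did 7843 of the 14179 genes, with a median of 0.38, and their mean over genes had r = 0.89 with it (rho 0.80, n = 19), 0.91 on deviations from the group means and 0.81 without the 2 mice. Scd2, a desaturase of fatty acid synthesis, had r = 0.62, at rank 11 of 14179, and 0.42 without the 2 mice. Tm7sf2, a sterol reductase, was the enzyme below 0, at −0.09. Without the 2 mice 12 of the 15 were above 0, and those below were Mvd (−0.23), Nsdhl (−0.20) and Lss (−0.0235). The median r with the member mean over the other lists was 0.09 for 5 sterol sensing genes, −0.0042 for 8 uptake and transport genes, 0.08 for 10 genes of efflux, storage and oxysterols, −0.0069 for 11 genes of fatty acid synthesis and 0.15 for 10 genes of the isoprenoid branch, whose mean over genes had r = 0.39 with the member mean and 0.75 on deviations from the group means. Without the 2 mice the medians were 0.20 for the enzymes, −0.20 for sensing, −0.16 for uptake and transport, −0.0612 for efflux, −0.16 for fatty acid synthesis and 0.0968 for the isoprenoid branch.

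**Figure D4:**
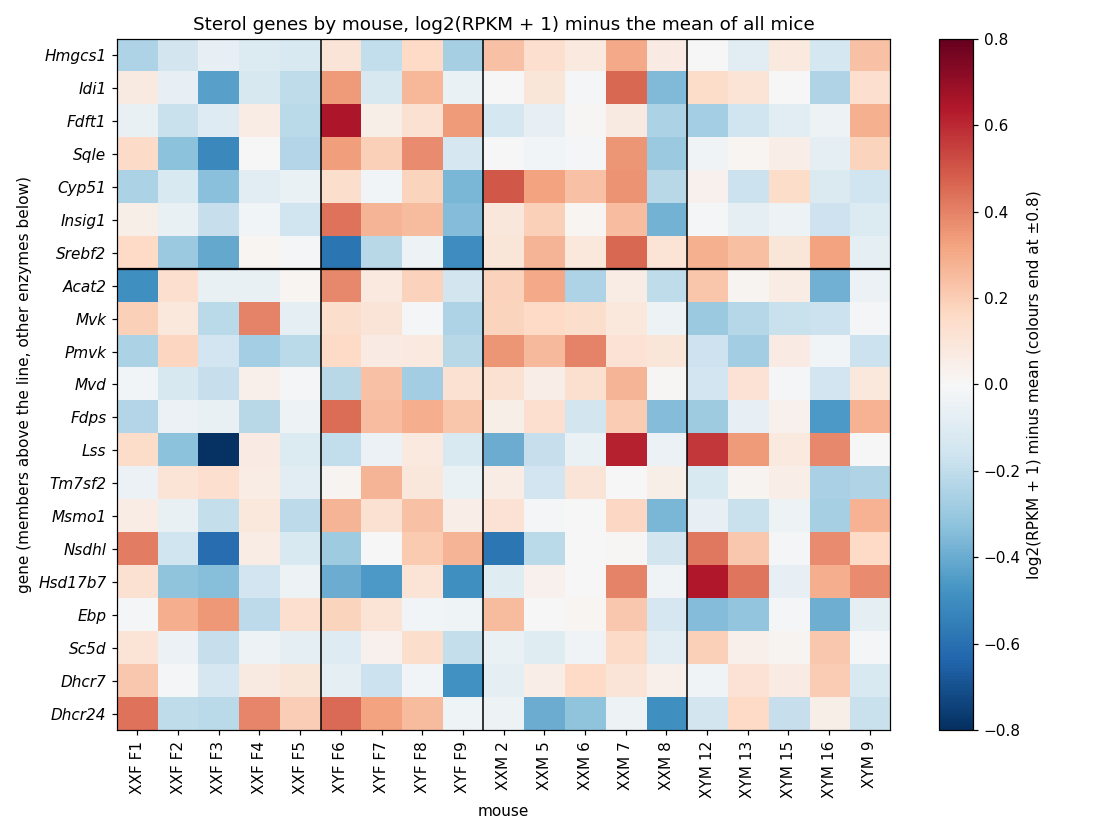
Level of the 7 genes (above the line) and 14 other sterol synthesis enzymes (below it) in each mouse on the x axis, as log2(RPKM + 1) minus the mean over all 19 mice, with red above and blue below the mean and colours that end at ±0.8. XXM 7 is red and XXF F3 is blue for most of the genes, the mice with the highest (0.32) and lowest (−0.29) member mean, while Fdft1 and Srebf2 take opposite colours in XYF F6.

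The other genes of the pathway came from 6 lists with 64 genes, of which 59 passed the filter. Those that did not pass included Vldlr, Ch25h, Cyp7b1 and Me1, with at most 19 reads in any library. In XXF against XYF mice 1 of the 59 was called, where 1.38% of all genes tested were: Gpr183, the oxysterol receptor, which was higher by 0.63 (SE 0.17, adjusted p = 0.0914) and was no longer called under 18 of 31 other settings. Those included leaving out XXF F1 (0.57, adjusted p = 0.177), XXF F2 (0.65, 0.128), XXF F4 (0.63, 0.166), XXF F5 (0.62, 0.204), XYF F6 (0.61, 0.217) or XYF F9 (0.46, 0.374). The difference of 0.63 was also not called without the males XXM 5 (0.117), XXM 6 (0.11), XXM 7 (0.11), XXM 8 (0.114), XYM 13 (0.115) or XYM 16 (0.108), with adjusted p from 0.0361 to 1.0 over the alternatives. In XXM against XYM mice, averaged over both sexes, and for the difference of the effects, limma called 0 of 59, where 2.96%, 1.72% and 0.0846% of all genes tested were called, and limma-voom called 0 in each. The unadjusted p was under 0.05 for 2 of 15 other enzymes in XXF against XYF mice (18.7% of all genes) and for 4 of 15 in XXM against XYM mice (27.1%).

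For gonads in XX mice, 2 of the 59 genes were called, where 4.22% of all genes tested were, both lower in XXM than in XXF mice: Nr1h3, the oxysterol receptor LXR alpha of macrophages, at −1.02 (SE 0.21, adjusted p = 0.00589), and Acss2, an acetyl-CoA synthetase, at −0.71 (SE 0.11, adjusted p = 0.000557). Both calls held under every other setting at the same thresholds. Among the 15 other enzymes 0 were called by limma, and 3 had an unadjusted p under 0.05, against 19.8% of all genes. Pmvk, phosphomevalonate kinase, passed the adjusted p alone (0.39, adjusted p = 0.0298).

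For gonads in XY mice, 12 of the 59 genes were called, where 15.8% of all genes tested were, 8 higher and 4 lower in XYM mice, in every list but the sterol sensing genes. Of the 15 other enzymes 1 was called, Hsd17b7, a sterol ketoreductase, higher by 0.64 (SE 0.15, adjusted p = 0.0078), and at 0.57 without XYM 12 it was under the fold threshold. In uptake and transport, 2 of 8 were called in opposite directions although both carry cholesterol out of lysosomes: Npc1 at 0.74 (SE 0.20, adjusted p = 0.0151) and Npc2 at −0.66 (SE 0.17, adjusted p = 0.0123). Npc2 was under the fold threshold without XYF F7 (−0.50) or XYM 16 (−0.58). In efflux, storage and oxysterols, 5 of 10 were called. Abca1, the cholesterol exporter, was higher by 1.03 (SE 0.19, adjusted p = 0.00299), and so were Soat1, which esterifies cholesterol, by 0.63 (0.00146), and Gpr183 by 0.71 (0.00845). Nr1h3 was at −1.07 (0.00424) and Apoe, a carrier of lipid in macrophages, at −0.77 (0.0199). Soat1 came under the fold threshold without XYF F6 (0.58), Gpr183 without XYF F9 (0.54) and Apoe without XYF F7 (−0.48). In fatty acid synthesis, 3 of 11 were called: Scd1 at 1.12 (0.00195), Fads1 at −0.91 (0.0127) and Gpam at 0.63 (0.0853), the last not called under 10 of 31 other settings. Those for Gpam included leaving out XYF F6 (0.52, adjusted p = 0.23), XYF F7 (0.58, 0.165), XYM 12 (0.53, 0.189), XYM 13 (0.59, 0.15) or XYM 16 (0.56, 0.172), with adjusted p from 0.021 to 0.284 over the alternatives. In the isoprenoid branch 1 of 10 was called, Pggt1b at 0.65 (0.0211), or 0.58 without XYM 12. Without XYF F6 and XYF F9 together, Fads1 (−0.51, adjusted p = 0.216), Npc1 (0.65, 0.116), Hsd17b7 (0.51, 0.107), Gpr183 (0.43, 0.14), Gpam (0.56, 0.284) and Pggt1b (0.47, 0.21) were not called.

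The 5 other sterol sensing genes had no call in any comparison with limma. In XYM against XYF mice 4 of the 5 passed the adjusted p below the fold threshold, against 39.9% of all genes past it, all higher: Scap at 0.25 (0.0743), Insig2 at 0.33 (0.0279), and the proteases Mbtps1 at 0.39 (0.053) and Mbtps2 at 0.55 (0.00663). Srebf1 had −0.08. Scap no longer passed under 9 of 32 other settings, among them without XYF F6 (0.20, adjusted p = 0.215), XYF F9 (0.24, 0.113), XYM 12 (0.24, 0.142), XYM 13 (0.22, 0.157) or XYM 16 (0.22, 0.163), with adjusted p from 0.0215 to 0.389. Mbtps1 no longer passed under 5, among them without XYF F6 (0.33, 0.162), XYM 12 (0.32, 0.135) or XYM 16 (0.36, 0.111), with 0.0253 to 0.316. Insig2 no longer passed under 2 (0.00625 to 0.339), and Mbtps2 passed under all 32. Insig2 alone of the 5 also passed in XXM against XXF mice, at 0.32 (adjusted p = 0.0634), against 9.50% of all genes. There 3 of the 5 had a lower mean, and Insig2 no longer passed under 7 of 32 other settings. Over males against females Insig2 and Mbtps2 passed, both higher, against 38.5% of all genes. In the difference between the chromosome effects, where the 7 genes had their largest median (−0.34), Mbtps2 had 0.62 (adjusted p = 0.132), Mbtps1 0.44 (0.217) and Scap 0.23 (0.348). Over males against females 4 of the 59 were called, where 7.32% of all genes tested were: Npc2 at −0.62 (0.00151), Nr1h3 at −1.05 (0.000167), Scd1 at 0.83 (0.00032) and Fads1 at −0.74 (0.00415). Npc2 was under the fold threshold without XYF F7 (−0.54), XXM 6 (−0.58) or XYM 16 (−0.58). The comparisons of gonads in XX mice, in XY mice and over both share mice, so their values stand side by side and are not independent.

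Cell type markers moved with several of these results. In bulk samples fewer cells of a type and less RNA per cell cannot be told apart. Srebf2 followed the B cell markers: with their score, the mean of the 8 centred markers, it had r = 0.90 (rho 0.88, n = 19), 0.77 on deviations from the group means and 0.92 without XXM 7 and XXF F3. With the mean of the 5 other sterol sensing genes Srebf2 had r = 0.88 (rho 0.88), 0.87 on deviations from the group means and 0.87 without the 2 mice. The summed B cell markers, whose most abundant gene was Cd79b, were 3040, 2872, 2494, 2871 and 2792 RPKM in XXF mice, 1594, 2590, 2690 and 1364 in XYF mice, 3996, 4395, 3955, 4011 and 3668 in XXM mice, and 3758, 3134, 3894, 3603 and 2313 in XYM mice. XYF F6 and XYF F9, lowest for Srebf2, were also lowest here, and males other than XYM 9 were highest. Of the 8 markers, 7 were called higher in XYM than in XYF mice, where 15.8% of all genes tested were called. Cd22 (1.18), Fcer2a (1.13), Cr2 (0.91) and Ms4a1 (0.82) were among the 5 largest. In XXM against XXF mice 1, Pax5 (1.0), was called higher, against 4.22% of all genes called. Over males against females 6 were called higher, against 7.32%. For XXF against XYF mice 8 of 8 had a higher mean, as had 8556 of 14186 genes, and Cr2 (0.79) was called, against 1.38% of all genes. There 5 of 8 had an unadjusted p under 0.05 in limma, against 18.7% of all genes. Limma also called 1 of 8 higher in XXM than in XYM mice (2.96% of all genes called), and 1 over XX against XY (1.72%). No B cell marker was at 0, and the part of B cells in the Srebf2 result was not tested.

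Srebf2 ran against the erythroid markers, with r = −0.79 (rho −0.79), −0.60 on deviations from the group means and −0.81 without the 2 mice. Of the 6 erythroid markers, 6 were called lower in XYM than in XYF mice, with a median of −2.29, against 15.8% of all genes called. In XXM against XXF mice limma called 0 of the 6, whose median was −0.94, against 4.22% of all genes called. There 1 had an unadjusted p under 0.05, against 19.8% of all genes. Their summed level, with Hbb-bs the most abundant gene (median 9208 RPKM), was 11424, 17510, 24814, 20445 and 14485 RPKM in XXF mice, 43632, 17845, 14153 and 32740 in XYF mice, 10295, 8301, 6293, 6403 and 12679 in XXM mice, and 2051, 6140, 4464, 1360 and 13200 in XYM mice. XYF F6 and XYF F9 were highest, and most males were below every female. Red blood cells had been lysed, no erythroid marker was at 0, and the part of these cells in the Srebf2 result was not tested.

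Fdft1 followed the proliferation markers, with r = 0.79 (rho 0.52, n = 19), 0.68 on deviations from the group means and 0.82 without the 2 mice. Of the 8 proliferation markers, 4 were called lower in XYM than in XYF mice, where 15.8% of all genes were called. The 4 were Birc5 (−1.59), Cdk1 (−1.29), Ccnb1 (−0.91) and Pcna (−0.60). In XXF against XYF mice limma called 0 of the 8, against 1.38% of all genes, and 8 of 8 had a lower mean, as had 5630 of 14186 genes. There 4 had an unadjusted p under 0.05, against 18.7% of all genes. Their summed level, with Pcna the most abundant gene (median 88.1 RPKM), was 273, 237, 247, 225 and 202 RPKM in XXF mice, 531, 210, 351 and 578 in XYF mice, 175, 166, 205, 199 and 231 in XXM mice, and 176, 226, 185, 185 and 458 in XYM mice. XYF F6, XYF F9 and XYM 9, the 3 mice with the highest Fdft1, were the 3 highest here. Fdft1 had r = −0.70 with the B cell score (rho −0.38), 0.62 with the myeloid score (rho 0.64) and 0.61 with the erythroid score (rho 0.48). Srebf2 had r = −0.70 with the proliferation score (rho −0.69), −0.49 on deviations from the group means and −0.75 without the 2 mice. No proliferation marker was at 0, and their part in the Fdft1 and Srebf2 results was not tested.

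Hmgcs1 ran against the T cell markers over all mice, with r = −0.58 (rho −0.64, n = 19), and the relation was absent on deviations from the group means, where r was 0.0006. All 8 T cell markers were called lower in XXM than in XXF mice, where 4.22% of all genes were called. Their median was −1.63, with Cd8b1 at −2.23, Cd8a at −1.91, Cd3d at −1.75, Cd3g at −1.72 and Cd3e at −1.53. Their summed level, with Trac the most abundant gene, was 1179, 1657, 1484, 1199 and 1459 RPKM in XXF mice, 1179, 1503, 1141 and 593 in XYF mice, 534, 570.3, 506, 387 and 385 in XXM mice, and 582, 542, 754, 657 and 359 in XYM mice. Males and XYF F9 were low and the other females high. Of the 8 markers, 7 were called lower in XYM than in XYF mice, where 15.8% of all genes were called and Hmgcs1 differed by 0.07 (−0.0069 without XYF F9). Cyp51, the other gene to pass in XXM against XXF mice, had r = −0.29 with the T cell score, which turned to 0.58 on deviations from the group means, and 0.45 with the B cell score. No T cell marker was at 0, and the part of T cells in the Hmgcs1 and Cyp51 results was not tested.

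The plasma cell, myeloid and natural killer cell markers were compared with the 7 genes in the same way. With the member mean, r was 0.34 for the plasma cell score, −0.10 for the myeloid score and −0.15 for the natural killer (NK) cell score. In XYM against XYF mice (15.8% of all genes called) the plasma cell markers Irf4 (1.03) and Slamf7 (0.71) were called higher and Tnfrsf17 (−0.82) lower. Tnfrsf17 was also called lower in XXF against XYF mice (−0.92), where 1.38% of all genes were called. Jchain was the most abundant plasma cell marker (median 903 RPKM). Of the myeloid markers, led by S100a9 (median 2311 RPKM), Ly6c2 alone was called, lower in XXM than in XYM mice (2.96% of all genes called) and over XX against XY (1.72%). Of the NK cell markers, 5 of 6 were called for XXF against XYF mice, against 1.38% of all genes, all higher with XX and led by Gzma (1.73). For XXM against XYM mice 3 of 6 were called, against 2.96%, again higher with XX. Fdft1 had r = −0.65 with the NK cell score (rho −0.42), −0.58 on deviations from the group means. The summed NK cell markers, with Gzma the most abundant gene (median 216 RPKM), were 403, 447, 434, 542 and 503 RPKM in XXF mice, 152, 251, 171 and 86.6 in XYF mice, 395, 327, 375, 365 and 333 in XXM mice, and 193, 194, 289, 158 and 65.5 in XYM mice. Every XX mouse was above every XY mouse, none of the markers was at 0, and the part of NK cells in the XXF against XYF values of Fdft1 was not tested.

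Several limits apply to all of these values. Srebf2 and the other genes were measured as RNA in bulk splenocytes, so neither SREBP-2 cleavage, enzyme activity nor cholesterol content is known. Each group held 4 or 5 mice, and leaving out single mice moved the adjusted p of Hmgcs1, Cyp51, Fdft1 and Insig1 across the threshold. Without an unimmunized group, a difference in the resting spleen and a difference in the response cannot be told apart. Gonads and the Sry transgene cannot be told apart either, nor can group and processing order. Which cells carried the differences in Srebf2, Fdft1, Hmgcs1 and Cyp51 was not tested.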

How the data were processed

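Splenocyte mRNA of 19 mice was measured with 1 library each. The deposited table holds log2 values: per the labels and study methods the authors used Subread for alignment to mm10, featureCounts for reads per gene, and RPKM, and the values are log2 of RPKM + 1, with 0.0001 added. Tool versions, annotation, strand and multi-match settings were not given in the sources used here. Study methods and sample records name different library kits, and no batch or pairing is given. Of 27179 genes, 25275 matched a RefSeq gene by Entrez identifier.

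Group means of the 4 groups were fitted to the log2 values with limma 3.58.1 in R 4.3.3 (empirical Bayes with a trend, two-sided), with p adjusted by Benjamini-Hochberg over the 14186 genes that reached RPKM 0.5 in 4 or more mice. Genes were called at adjusted p under 0.1 and a log2 difference over 0.585 in size, the thresholds of the study. The study applied them with EdgeR, and here they were applied with limma to log2(RPKM + 1). Exact permutation tests are for a single gene over mice. Correlations over 19 mice carry no p. Whole reads were recovered for 21314 of 21317 genes within 0.05 read and used for limma-voom and for the depths given. Other steps used scipy 1.17.1, matplotlib 3.10.9, numpy 2.4.6 and pandas 2.3.3 in Python 3.11.15. The tests were run on simulated data first.

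The 7 genes and all gene lists were chosen with earlier results of these data known. Named were all 7 genes, the called genes of each list up to 5 per comparison, for a list without calls the 3 with the largest difference where the 7 genes differed most, the 10 genes most and 3 least like the mean of the 7, and the most abundant gene of each marker list. Not every gene this rule selects is printed. Scd2, Tm7sf2, Pmvk and the other genes named below the fold threshold were added after their values were seen. Alternatives were other filters (none, RPKM of 1), pseudocounts (0.1, 0.5), scalings (median ratio, quantile), groups in the fit, spread without a trend, array weights, thresholds, limma-voom and leaving out each mouse. Leaving out XYF F9 with XYM 9, or XYF F6 with XYF F9, was added after seeing the data.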

Additional observations from a re-analysis of the deposited data

Results flagged for a closer look

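The NK cell marker score of XYM 9, the mean of the 6 centred markers, was −1.45 and lay far from the other XYM mice, at −0.34 to 0.10. It was the only mouse to lie apart from its group in this way among 64 groups of values looked at, and chance alone flags about 1 in 20 groups. XYM 9 also had the highest summed myeloid markers, 46704 RPKM, and its levels of the 7 genes did not lie apart from the other XYM mice by the same measure.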

How the results depend on the processing

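Results were recomputed under 14 other settings and with each of the 19 mice left out in turn. The median r between the 7 genes was 0.42 in the analysis itself and 0.39 to 0.50 without single mice. It was recomputed otherwise only on deviations from the group means, without XXM 7 and XXF F3, and with median ratio rescaling, which gave 0.33 to 0.50. The median log2 difference of the 7 genes depended more on single mice. Without 1 mouse it was −0.31 to −0.14 in XXF against XYF mice, −0.0350 to 0.11 in XXM against XYM mice, 0.0988 to 0.29 in XXM against XXF mice, −0.16 to −0.0002 in XYM against XYF mice, 0.0025 to 0.10 over males against females, −0.14 to −0.0068 over XX against XY, and −0.41 to −0.25 for the difference between the chromosome effects. Differences were followed for the 7 genes and for the pathway list genes past the adjusted p threshold, named or not. Each count below is of 1 value under 1 setting. Under the 14 settings 114 differences no longer passed the adjusted p threshold, 12 newly passed it and 19 changed sign. Without single mice the counts were 2332, 202, 11 and 20. Depth limited Idi1 most among the 7 genes, with 68 to 194 reads per library. What moved or turned is given here, and the cause was not tested.

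Number of the 7 genes under the adjusted p threshold. In XXM against XYM mice it was 2 with array weights, and 0 to 1 without single mice. In XXM against XXF mice it was 0 at an adjusted p under 0.05, 3 with median ratio rescaling or array weights, and 0 to 2 without single mice. It was 0 without XXF F1, XXF F2, XXM 2, XXM 5 or XXM 7. In XYM against XYF mice it was 1 with the 2 compared groups alone, 1 at an adjusted p under 0.05, 0 without XYF F6 and XYF F9 together, 3 with array weights or without XYF F9 and XYM 9 together, and 1 to 3 without single mice. Over males against females it was 1 with median ratio rescaling, 1 with array weights, 1 at an adjusted p under 0.05, 1 without XYF F6 and XYF F9 together, and 1 to 3 without single mice. For the difference between the chromosome effects it was 4 with array weights, 1 without XYF F9 and XYM 9 together, and 0 to 1 without single mice. In XXF against XYF mice, and over XX against XY, it was 0 to 1 without single mice.

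Number of the 7 genes called. With no fold change threshold it was 2 in XXM against XXF mice, 2 in XYM against XYF mice and 2 over males against females. In XYM against XYF mice it was 1 with quantile normalization (Srebf2), and 0 to 1 without single mice, with 1 called without XYF F8.

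Number of the 59 genes of the pathway lists called. In XXF against XYF mice it was 0 with no filter, with median ratio rescaling, with the 2 compared groups alone, with array weights, at an adjusted p under 0.05, without XYF F9 and XYM 9 together and without XYF F6 and XYF F9 together, and 0 to 3 without single mice. In XXM against XYM mice it was 1 with a pseudocount of 0.1, 1 with a pseudocount of 0.5, 1 with median ratio rescaling, 3 with array weights, 4 with no fold change threshold, 2 without XYF F9 and XYM 9 together, and 0 to 3 without single mice. Over XX against XY it was 2 with no fold change threshold. In XXM against XXF mice it was 4 with a pseudocount of 0.1, 12 with no fold change threshold, 4 with limma-voom, and 2 to 4 without single mice. In XYM against XYF mice it was 30 with no fold change threshold, 6 without XYF F6 and XYF F9 together, and 9 to 16 without single mice. Over males against females it was 24 with no fold change threshold, and 3 to 5 without single mice. For the difference between the chromosome effects it was 8 with array weights, 5 without XYF F9 and XYM 9 together, and 0 to 9 without single mice.

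Differences that changed sign, as log2 differences. In XXM against XYM mice Fdft1 had 0.0377 with quantile normalization, 0.0688 with array weights and 0.0636 without XYF F9 and XYM 9 together, and −0.0748 to 0.0636 without single mice. Sqle had 0.0265 with quantile normalization, 0.0130 with array weights, 0.0127 without XYF F9 and XYM 9 together, and −0.11 to 0.0506 without single mice. Srebf2 had −0.0679 with quantile normalization, −0.0098 with array weights, −0.0344 without XYF F9 and XYM 9 together, and −0.0350 to 0.0663 without single mice. Idi1 had −0.10 to 0.11 without single mice.

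Over XX against XY Hmgcs1 had −0.0085 with median ratio rescaling, −0.0030 with quantile normalization, and −0.0075 to 0.0640 without single mice, and Cyp51 had −0.0011 without XYF F9 and XYM 9 together. In XXM against XXF mice Fdft1 had −0.0133 to 0.0678 without single mice. With XY chromosomes, XYM against XYF, Hmgcs1 had −0.0607 with array weights, −0.0611 without XYF F9 and XYM 9 together, and −0.0069 to 0.14 without single mice, and Cyp51 had −0.15 to 0.0282 without single mice. Over males against females Sqle had −0.0103 with median ratio rescaling, −0.0378 with array weights, −0.0620 without XYF F9 and XYM 9 together, −0.0353 without XYF F6 and XYF F9 together, and −0.0431 to 0.0535 without single mice. For the difference between the chromosome effects Srebf2 had −0.0068 without XYF F6 and XYF F9 together.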
